A study of Homo sapiens with 4 samples.

Results

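Sphingosine 1-phosphate (S1P) is a signalling lipid made inside cells from the membrane lipid sphingosine. The genes described here are its cell-surface receptors and the enzymes and carrier that make, remove and export it: S1PR1, S1PR2, S1PR3, S1PR5, SPHK1, SPHK2, SGPL1, SGPP1 and SPNS2. They were sought by gene symbol in the table of gene counts, and 7 of the 9 symbols had an entry among 22637 genes. S1PR1 and S1PR5 were not analysed here. The set was proposed because S1PR3 is higher in both olaparib-resistant lines, so it was chosen by the S1PR3 ratios of those pairs, which are given as description.

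RNA of 4 human prostate cancer cell lines was sequenced, with 1 library per line. LNCaP is an androgen-responsive, castration-sensitive line and C4-2B a castration-resistant line that descends from it. From LNCaP and C4-2B the resistant lines LN-OlapR and 2B-OlapR, respectively, were selected by long-term culture in escalating olaparib, a PARP inhibitor, which both also receive in routine culture. All 4 were labelled untreated, and the series description gives plating for 48 h without the selecting agent before total RNA was taken. The methods of the paper give a longer plating time and do not state that olaparib was left out. Each resistant line is 1 derived line, so resistance and the history of that line cannot be told apart. LN-OlapR against LNCaP is called the LN pair and 2B-OlapR against C4-2B the 2B pair. With 1 library per line no test between lines was made, no p-value is given, and every 95% interval covers counting error only.

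S1P is formed when a sphingosine kinase phosphorylates sphingosine. It is returned to sphingosine by phosphatases, or cleaved for good by a lyase, and what leaves the cell acts on G protein-coupled S1P receptors of the same or neighbouring cells. Through them it is known for its effects on cell movement, survival and adhesion, and the pool of its precursor ceramide is commonly linked to growth arrest and cell death.

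The 4 libraries held between 19950537 and 26394267 counts, and levels are given as CPM, the count of a gene relative to all counts of its library, normalized between libraries. Prostate luminal markers were present in every library, with 9 of 9 above 53.0 normalized CPM. Of 12 markers of basal, endothelial, blood and stromal cells, 3 had an entry (KRT14, VWF and COL1A1) and the other 9 were not analysed here. The summed level of those 3 was 22.6 and 28.8 normalized CPM in LNCaP and C4-2B and 13.2 and 9.94 in LN-OlapR and 2B-OlapR, so it was lower in the resistant lines. VWF and COL1A1 were lower in both resistant lines, whereas KRT14 went from 3 counts in LNCaP to 13 in LN-OlapR and from 11 in C4-2B to 4 in 2B-OlapR. None of the 3 was at 0 in a library, and their part in the results was not tested. The LNCaP library stood apart by KLK3, the gene of prostate-specific antigen, at 53.1 normalized CPM against 1870 to 2685 in the other lines. Results of the LN pair and of C4-2B against LNCaP rest on that library, and those of the 2B pair do not.

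The promoters of the receptors are shown first, because a single gene count covers transcripts from separate S1PR3 starts. S1PR3 lies on the plus strand of chr9:88990863-89005010 in GENCODE release 29 on GRCh38, the build named in the submitters' processing notes. Of its 7 annotated transcripts, 2 carry the receptor coding sequence, which lies within chr9:89001201-89002334, and 5 do not. The deposited counts are per gene and cannot separate these transcripts. The RefSeq promoter table (GRCh38.p14) held 5 of the 7 genes, with 9 starts in all. SGPP1 and SPNS2 were not among them.

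The 250 bases before each receptor gene start are printed on the strand of the gene, with GC boxes in capitals (GGGCGG or its reverse complement CCGCCC, overlapping matches counted separately). The first S1PR3 start, at 88990863, is where transcripts without the receptor coding sequence begin, and its promoter is chr9:88990613-88990862.
S1PR3 start 1: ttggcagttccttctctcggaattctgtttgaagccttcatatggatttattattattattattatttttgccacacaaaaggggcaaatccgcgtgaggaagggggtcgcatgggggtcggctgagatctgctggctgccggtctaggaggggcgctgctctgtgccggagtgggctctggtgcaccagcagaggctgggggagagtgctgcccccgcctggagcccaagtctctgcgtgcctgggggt
The second S1PR3 start, at 88991468, lies near the start of a receptor-coding transcript, and its promoter is chr9:88991218-88991467. The other receptor-coding transcript begins at 88996506, and no promoter is printed for it.
S1PR3 start 2: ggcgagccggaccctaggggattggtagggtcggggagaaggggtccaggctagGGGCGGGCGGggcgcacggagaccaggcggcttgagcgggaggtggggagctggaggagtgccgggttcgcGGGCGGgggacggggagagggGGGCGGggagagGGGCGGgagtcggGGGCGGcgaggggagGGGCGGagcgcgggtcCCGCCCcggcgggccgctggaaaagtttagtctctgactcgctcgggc
For S1PR2 the start is at 10231331 on the minus strand, and its promoter is chr19:10231332-10231581.
S1PR2: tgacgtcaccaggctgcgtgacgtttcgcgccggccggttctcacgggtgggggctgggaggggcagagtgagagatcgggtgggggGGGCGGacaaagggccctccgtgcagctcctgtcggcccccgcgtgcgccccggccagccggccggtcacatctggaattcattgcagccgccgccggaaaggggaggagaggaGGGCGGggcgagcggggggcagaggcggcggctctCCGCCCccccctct

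The S1PR3 promoters differ in base composition. GC content was 57.2% before the first start and 76.4% before the second, against a median of 58.0% over 35116 RefSeq promoters of the same length. The second held 8 GC boxes and the first none, whereas 42.6% of all these promoters held at least 1 and 0.584% held 8 or more. The S1PR2 promoter had a GC content of 74.0% and 3 GC boxes. An androgen receptor half-site (AGAACA), a TEAD motif (GGAATG) and a TATA box (TATAAA) were also sought on both strands. None of these letters occurred in the 3 windows, compared with 12.4%, 11.9% and 10.7% of all promoters. These matches describe letters only and were not tied to binding or to the expression values.

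S1PR3 (ENSG00000213694.7) encodes a receptor that couples to several classes of G protein. It was low in LNCaP, higher in C4-2B and LN-OlapR, and by far the highest in 2B-OlapR. LNCaP had 40 counts, or 1.49 normalized CPM (1.06 to 2.03). LN-OlapR had 583 counts, or 25.0 normalized CPM (23.0 to 27.1). C4-2B stood between them at 323 counts, or 15.8 normalized CPM (14.1 to 17.6), and 2B-OlapR was highest at 3038 counts, or 147 normalized CPM (141 to 152). The order was LNCaP, C4-2B, LN-OlapR, 2B-OlapR, and each neighbouring step exceeded counting error. The smallest step, from C4-2B to LN-OlapR, was 0.66 on the log2 scale (0.46 to 0.86).

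Each resistant line was above the line it came from. In the LN pair S1PR3 was 16.6-fold higher in the resistant line, a log2 ratio of 4.05 (3.61 to 4.57) that ranked 56 of 15373 genes. The 2B pair gave a 9.28-fold higher level, a log2 ratio of 3.21 (3.05 to 3.39) that ranked 82 of 15527 genes. The log2 ratio of the LN pair was larger by 0.84 (0.35 to 1.33).

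Within the parental lines and within the resistant lines, the castration-resistant background had the higher level. C4-2B exceeded LNCaP 10.5-fold, a log2 ratio of 3.39 (2.93 to 3.92) and rank 209 of 15580. Between the resistant lines, 2B-OlapR exceeded LN-OlapR 5.86-fold, a log2 ratio of 2.55 (2.42 to 2.68) and rank 348 of 15539. Parental C4-2B thus stood closer to LN-OlapR than to LNCaP. A higher gene level may come from more cells with the RNA or from more RNA per cell, which cannot be told apart in bulk RNA.

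**Figure D1:**
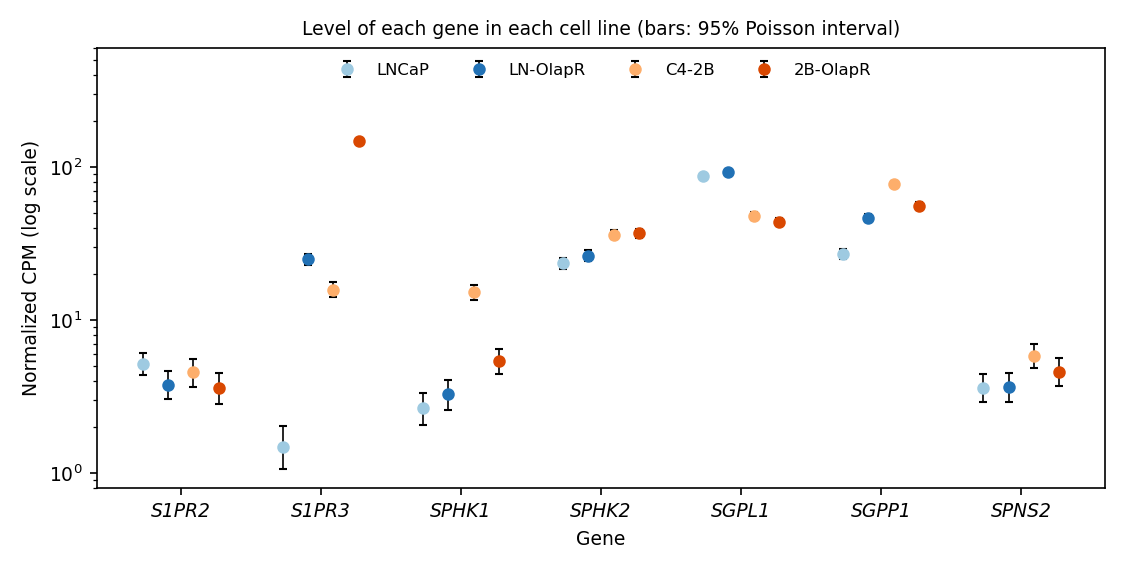
Normalized CPM on a log axis for the 7 genes with an entry, 1 point per cell line with its 95% Poisson interval, which covers counting error only. S1PR3 spans 1.49 to 147 normalized CPM, whereas the points of S1PR2 and SPNS2 lie close together.

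S1PR2 (ENSG00000267534.4), a receptor best known for coupling to G12/13, did not share this pattern. The parental lines had 139 (LNCaP) and 93 (C4-2B) counts, or 5.17 and 4.54 normalized CPM, and their resistant lines 88 and 74 counts, or 3.77 and 3.57 normalized CPM. In the order of levels, no line differed from its neighbour beyond counting error. The log2 ratio was -0.45 (-0.86 to -0.06) in the LN pair and -0.35 (-0.81 to 0.11) in the 2B pair, so the second interval includes 0. The gene lies at chr19:10221433-10231331 on the minus strand and overlaps DNMT1 on the same strand over 9854 bases. DNMT1, the maintenance DNA methyltransferase, stood at 262.7 to 345.4 normalized CPM with log2 ratios of 0.11 and 0.07 in the LN and 2B pairs. How reads within the overlap were assigned is not given in the sources used here, and its part in the S1PR2 counts was not tested.

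The makeup of the receptor counts differed between lines. S1PR3 took 22.35% of the 179 counts of both receptors in LNCaP (Wilson interval 16.86 to 28.99%). In LN-OlapR it took 86.9% of 671 (84.1 to 89.2%), and in C4-2B 77.6% of 416 (73.4 to 81.4%). Its share in 2B-OlapR was 97.6% of 3112 counts (97.0 to 98.1%). The intervals of the 4 lines do not overlap. In LNCaP, S1PR2 supplied most receptor counts, and in the other lines S1PR3 did.

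Longer transcripts give more counts, so the share was also taken per kilobase of the longest transcript (8505 bases for S1PR3, 3643 for S1PR2). S1PR3 then made up 11.0% in LNCaP and 73.9% in LN-OlapR, and it made up 59.8% in C4-2B against 94.6% in 2B-OlapR. With all annotated exons of S1PR3 merged (13578 bases) the shares were 7.17%, 64.0%, 48.2% and 91.7%, so C4-2B fell below an even split. With the spliced receptor-coding transcript (4206 bases) they were 19.95%, 85.2%, 75.05% and 97.3%. This last length treats all S1PR3 counts as receptor-coding. The counts also cover transcripts without the receptor coding sequence, whose part was not measured.

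SPHK1 (ENSG00000176170.14, chr17:76376584-76387860, plus strand) encodes the kinase that makes S1P mainly in the cytosol and at the plasma membrane. Its counts were 71 in LNCaP and 76 in LN-OlapR, 2.64 and 3.26 normalized CPM, with a log2 ratio of 0.30 (-0.18 to 0.79) that includes 0. C4-2B had 311 counts, 15.2 normalized CPM, and 2B-OlapR 112 counts, 5.41 normalized CPM. C4-2B was therefore the high line. SPHK1 was 5.72-fold higher there than in LNCaP, a log2 ratio of 2.52 (2.15 to 2.92). In 2B-OlapR it was 2.80-fold lower than in C4-2B, a log2 ratio of -1.49 (-1.82 to -1.18) that ranked 421 from the bottom of 15527 genes. The log2 ratios of the pairs differed by 1.79 (1.23 to 2.35). An antisense neighbour, PRPSAP1, overlaps SPHK1 over 7938 bases and had log2 ratios of -0.23 in the LN pair and 0.19 in the 2B pair. Whether the counting used strand is not given in the sources used here.

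SPHK2 (ENSG00000063176.16, chr19:48619291-48630717, plus strand), the kinase also found in the nucleus, was the more abundant kinase in every line. It had 631, 613, 739 and 761 counts in LNCaP, LN-OlapR, C4-2B and 2B-OlapR, or 23.5, 26.3, 36.1 and 36.7 normalized CPM. Little separated a resistant line from its parent. The log2 ratio was 0.16 (0.00028 to 0.33) in the LN pair and 0.02 (-0.12 to 0.17) in the 2B pair. Between backgrounds it was higher in C4-2B than in LNCaP by 0.62 (0.47 to 0.78) and higher in 2B-OlapR than in LN-OlapR by 0.48 (0.33 to 0.64). SPHK2 overlaps RPL18 over 246 bases, DBP over 688 and the antisense gene ENSG00000268093 over 4842, all on the opposite strand. RPL18 stood at 502.2 to 709.3 normalized CPM. Its log2 ratios were 0.16 in the LN pair, -0.01 in the 2B pair and 0.50 for C4-2B against LNCaP. DBP gave -0.13, 0.13 and -0.03 in turn, and ENSG00000268093 had at most 10 counts in a library. Their part in the SPHK2 counts was not tested.

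The kinase makeup set C4-2B apart. SPHK1 supplied 29.6% of kinase counts there (26.9 to 32.5%), compared with 10.1% in LNCaP (8.10 to 12.6%), 11.0% in LN-OlapR (8.90 to 13.6%) and 12.8% in 2B-OlapR (10.8 to 15.2%). The intervals of these last 3 overlap. Per kilobase of the longest transcript its share was 34.2% in C4-2B and 12.2%, 13.3% and 15.4% in LNCaP, LN-OlapR and 2B-OlapR. S1PR3 and SPHK1 thus went in opposite directions in the 2B pair.

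**Figure D2:**
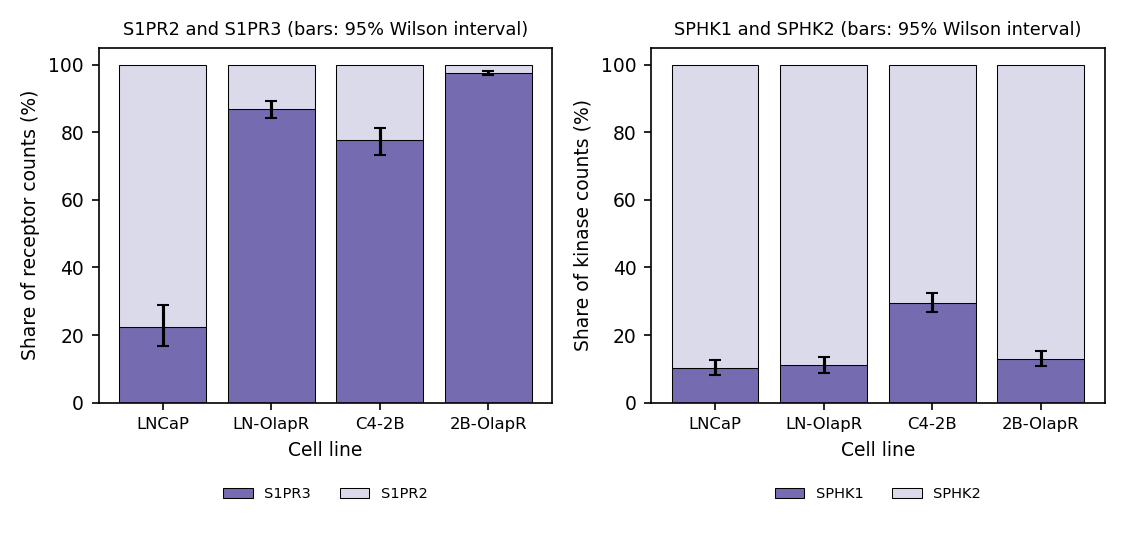
Stacked bars give the share of counts (%) of each gene among the receptors S1PR2 and S1PR3 (left) and the kinases SPHK1 and SPHK2 (right) in each cell line, with the 95% Wilson interval of the darker share. The S1PR3 share is 22.35% in LNCaP and 97.6% in 2B-OlapR, and the SPHK1 share is highest in C4-2B at 29.6%.

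SGPL1 (ENSG00000166224.18, chr10:70815961-70881173, plus strand) encodes the lyase that cleaves S1P irreversibly. The LN pair had 2335 counts in the parental and 2175 in the resistant line, or 86.9 and 93.2 normalized CPM, and the 2B pair 981 and 905, or 47.9 and 43.7 normalized CPM. C4-2B and 2B-OlapR were both below LNCaP and LN-OlapR. C4-2B was 1.81-fold lower than LNCaP, a log2 ratio of -0.86 (-0.97 to -0.75). 2B-OlapR was 2.13-fold lower than LN-OlapR, a log2 ratio of -1.09 (-1.21 to -0.98). Within the pairs the log2 ratios were 0.10 (0.02 to 0.19) for LN and -0.13 (-0.27 to -0.003) for 2B. Another scaling shifted the median of all genes by up to -0.08 in the LN pair, near the size of the SGPL1 ratio there. In the 2B pair the shifts ran from -0.04 to 0.03. In both pairs a shift was larger than the distance of the nearer interval limit from 0.

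SGPP1 (ENSG00000126821.8, chr14:63684214-63728039, minus strand) encodes the S1P phosphatase of the endoplasmic reticulum. LNCaP had 722 counts and LN-OlapR 1079, or 26.9 and 46.3 normalized CPM, whereas C4-2B had 1582 and 2B-OlapR 1149, or 77.3 and 55.5 normalized CPM. LNCaP was lowest and C4-2B highest, and the resistant lines lay between them. LN-OlapR was 1.72-fold higher than LNCaP, a log2 ratio of 0.78 (0.65 to 0.92). 2B-OlapR was 1.39-fold lower than C4-2B, a log2 ratio of -0.48 (-0.59 to -0.37). The ratios of the pairs differed by 1.26 (1.09 to 1.44), and C4-2B exceeded LNCaP 2.88-fold, a log2 ratio of 1.52 (1.40 to 1.65).

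SPNS2 (ENSG00000183018.9, chr17:4498838-4539035, plus strand), the transporter that carries S1P out of the cell, was low in every line. The counts were 97, 85, 119 and 95 in LNCaP, LN-OlapR, C4-2B and 2B-OlapR, or 3.61, 3.64, 5.82 and 4.58 normalized CPM. Ordered by level (LNCaP, LN-OlapR, 2B-OlapR, C4-2B), no line differed from its neighbour beyond counting error, and the log2 ratios of 0.02 (-0.42 to 0.45) in the LN pair and -0.34 (-0.75 to 0.06) in the 2B pair both have intervals that include 0. C4-2B was above LNCaP by 0.69 (0.29 to 1.09). A difference of about 1.3-fold between the lines of the 2B pair was not detectable at this depth.

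Levels of all 7 genes were set against each other per kilobase of the longest transcript. In LNCaP, SGPL1 led at 15.1 normalized CPM per kilobase and S1PR3 was last of 7 at 0.175. SGPL1 also led in LN-OlapR at 16.2 (with merged exons SGPP1 led there, at 14.0 against 12.5), where S1PR3 ranked 4 at 2.94. In C4-2B, SGPP1 led at 23.3 and S1PR3 ranked 5 at 1.86. S1PR3 was first in 2B-OlapR at 17.2 normalized CPM per kilobase, above SGPP1 at 16.7 by less than counting error. With merged exons it ranked second in 2B-OlapR and last in C4-2B, and with the spliced receptor transcript it ranked first in 2B-OlapR at 34.9. S1PR2 stayed between 0.980 and 1.42, and SPNS2 between 1.05 and 1.69, in all lines.

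All 7 genes averaged 1 normalized CPM or more over each pair of libraries, and a gene was counted as different past 2-fold. In the LN pair 1 gene was higher, S1PR3, where 4.64% of all genes were, and 0 were lower against 4.83%. In the 2B pair S1PR3 was the 1 higher gene, against 4.42% of all genes, and SPHK1 the 1 lower gene, against 5.65%. C4-2B against LNCaP gave 3 higher genes, S1PR3, SPHK1 and SGPP1, against 8.00% of all genes, and 0 lower against 7.18%. 2B-OlapR against LN-OlapR gave 1 higher gene, S1PR3, against 8.93%, and 1 lower gene, SGPL1, against 9.45%. S1PR3 was the 1 gene higher in both resistant pairs, as were 0.836% of 14602 genes, and 0 were lower in both, against 1.09%. Because the set was proposed for S1PR3, its counts are description.

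The median log2 ratio over the 7 genes was 0.16 in the LN pair and -0.34 in the 2B pair, beside -0.004 and -0.0003 over all genes. It was 0.69 for C4-2B against LNCaP and 0.33 for 2B-OlapR against LN-OlapR, beside -0.02 and -0.01. The comparisons share libraries and are not independent of each other. Apart from S1PR3, the largest log2 ratios were those of SPHK1 and SGPP1 between the parental lines.

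**Figure D3:**
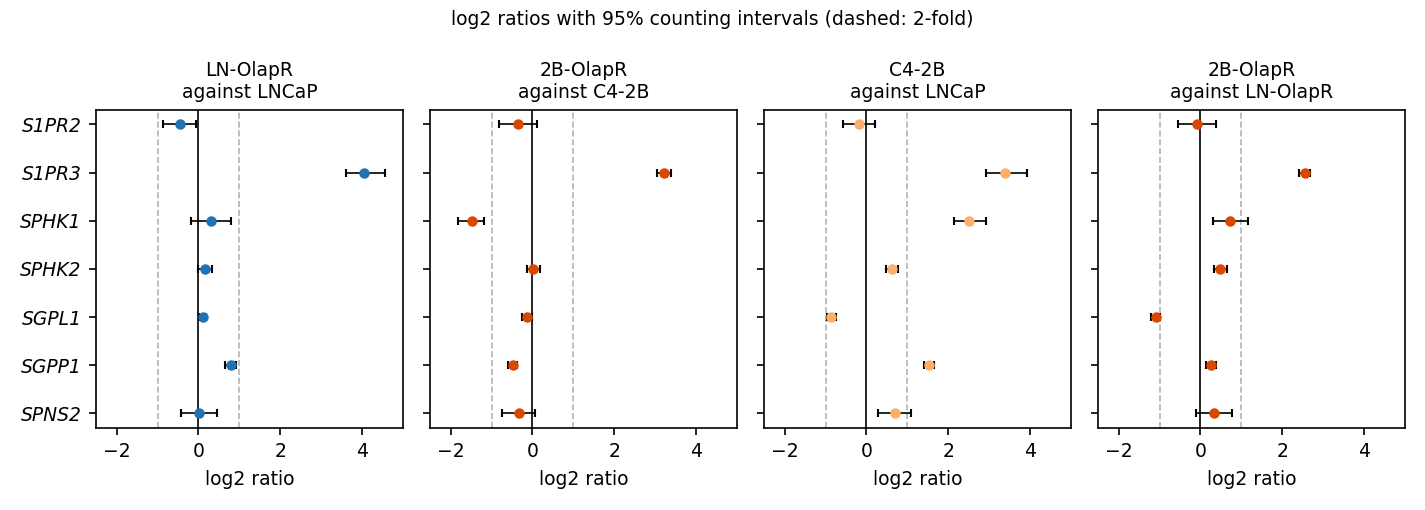
Each panel plots the log2 ratio of the 7 genes in 1 comparison, with a bar for the 95% counting interval and dashed lines at 2-fold. S1PR3 is to the right of 2-fold in the 4 panels, and SPHK1 is at 2.52 between the parental lines and at -1.49 in the 2B pair.

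The surrounding pathway was described with 7 lists of 76 genes, of which 67 had an entry. In each resistant pair 62 passed the minimum level. Past 2-fold, the LN pair had 0 higher and 5 lower genes, beside 4.64% and 4.83% of all genes. The 2B pair had 2 higher and 6 lower genes, beside 4.42% and 5.65%. These percentages also stand beside the counts of the single lists below. Of the lower genes, SPTLC3 in the LN pair and CERS1 and LPAR6 in the 2B pair were above 1 normalized CPM in the parental line only. The lists hold other S1P genes, ceramide synthesis, ceramide release and ceramidases, ceramide use, G proteins and receptor handling, YAP and SRF target genes, and lysophosphatidic acid (LPA) receptors with the LPA-forming enzyme ENPP2. S1PR4, SPTSSB, CERS3, CCN2, ANKRD1, LPAR1, LPAR4, LPAR5 and ENPP2 were not analysed here. Where 4 counts follow a gene without further label, they are those of LNCaP, LN-OlapR, C4-2B and 2B-OlapR in turn.

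Other S1P genes gave medians of 0.35 in the LN pair and 0.63 in the 2B pair, and none of the 5 that passed reached 2-fold. PLPP1, a phosphatase that acts on S1P and LPA outside the cell, was highest of the list in the LN pair and had 4024, 5517, 6867 and 12434 counts in LNCaP, LN-OlapR, C4-2B and 2B-OlapR. Each resistant line was above its parent, with log2 ratios of 0.66 (0.60 to 0.72) and 0.84 (0.80 to 0.88) in the LN and 2B pairs. SGPP2, the second S1P phosphatase, was highest in the 2B pair at 0.89 (0.43 to 1.37). PLPP2 was lowest in the LN pair at -0.85 (-1.002 to -0.70) and PLPP3 lowest in the 2B pair at 0.02 (-0.20 to 0.25).

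Ceramide synthesis gave medians of -0.05 in the LN pair and -0.31 in the 2B pair over 14 genes, with 1 and 2 genes at least 2-fold lower. SPTLC3, a subunit of the serine palmitoyltransferase that starts the pathway, had 279 counts in LNCaP and 11, 9 and 11 in LN-OlapR, C4-2B and 2B-OlapR, a log2 ratio of -4.40 (-5.48 to -3.60) in the LN pair. LNCaP alone held it at an appreciable level, and it did not pass the minimum in the 2B pair. The ceramide synthases CERS1 and CERS4 were the lower genes of the 2B pair. CERS4 had 1191, 1196, 692 and 153 counts, with log2 ratios of 0.21 (0.09 to 0.33) in the LN pair, the highest of the list, and -2.19 (-2.46 to -1.94) in the 2B pair. CERS1 had 436, 345, 48 and 15 counts and a log2 ratio of -1.66 (-2.64 to -0.83) in the 2B pair. ORMDL1, an inhibitor of the first enzyme, was the highest of the list in the 2B pair at 0.07 (-0.12 to 0.27).

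Genes that release or break down ceramide gave medians of 0.08 over 10 genes in the LN pair and 0.33 over 11 in the 2B pair, where 2 were at least 2-fold higher. Both encode neutral sphingomyelinases, which release ceramide from sphingomyelin. SMPD3 had 63, 77, 99 and 263 counts, with log2 ratios of 0.49 (-0.005 to 0.998) in the LN pair and 1.39 (1.05 to 1.74) in the 2B pair. SMPD2 had 608, 741, 426 and 931 counts, with 0.49 (0.33 to 0.65) and 1.11 (0.94 to 1.28). The lowest values were -0.91 (-0.97 to -0.85) for SMPD4 in the LN pair and -0.75 (-1.28 to -0.24) for the ceramidase ASAH2 in the 2B pair.

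Genes that use or move ceramide gave medians of -0.16 over 8 genes in the LN pair and -0.04 over 7 in the 2B pair. UGT8, the galactosylceramide synthase, had 401 counts in LNCaP against 100 in LN-OlapR, and 452 in C4-2B against 446 in 2B-OlapR. It was low in LN-OlapR alone, with a log2 ratio of -1.79 (-2.13 to -1.48) in the LN pair and -0.04 (-0.23 to 0.15) in the 2B pair. CPTP, which transfers ceramide 1-phosphate, was highest in both pairs at 0.47 (0.38 to 0.56) and 0.57 (0.50 to 0.63). SAMD8 was lowest in the 2B pair at -0.28 (-0.46 to -0.10).

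Downstream of the receptors, 17 genes for G proteins, exchange factors, small GTPases, arrestins and kinases gave medians of -0.24 in the LN pair and 0.05 in the 2B pair. GNAI1, an inhibitory G protein alpha subunit, was the lowest in both and the single listed gene at least 2-fold lower in both. Over all genes, 1.09% of 14602 were at least 2-fold lower in both. It had 1084, 220, 1367 and 678 counts, with log2 ratios of -2.09 (-2.31 to -1.89) and -1.03 (-1.17 to -0.90). GNAQ, the alpha subunit that activates phospholipase C, had 640, 142, 106 and 167 counts. LNCaP was the high line for GNAQ, and its log2 ratios were -1.96 (-2.24 to -1.70) in the LN pair and 0.64 (0.28 to 1.003) in the 2B pair. ARHGEF1, a guanine nucleotide exchange factor, was highest in the LN pair at 0.65 (0.50 to 0.79), and the arrestin ARRB1 was highest in the 2B pair at 0.67 (0.58 to 0.75).

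YAP and SRF target genes, which signalling through G12/13 can raise, gave medians of -0.26 and 0.14 over 5 genes in the LN and 2B pairs, with 1 lower in each. AMOTL2, a YAP-binding protein, had 74, 27, 246 and 146 counts and a log2 ratio of -1.23 (-1.94 to -0.60) in the LN pair. AJUBA, a LIM-domain adaptor, had 899, 544, 495 and 153 counts and a log2 ratio of -1.71 (-1.98 to -1.45) in the 2B pair. Both are named because they were past 2-fold lower in 1 pair. In the other pair the log2 ratio was -0.77 for AMOTL2 and -0.52 for AJUBA. Of the 5 genes, 1 had a positive log2 ratio in the LN pair and 3 in the 2B pair. SRF was highest in the LN pair at 0.37 (0.27 to 0.48) and CCN1 highest in the 2B pair at 0.92 (0.61 to 1.25).

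LPA is a related lipid with receptors of its own, and 3 of these had an entry, with medians of -0.54 in the LN pair and -1.19 in the 2B pair. LPAR3 had 2853 counts in LNCaP against 1320 in LN-OlapR, and 1466 in C4-2B against 563 in 2B-OlapR. Each resistant line was below its parent, with log2 ratios of -0.91 (-1.002 to -0.81) and -1.40 (-1.54 to -1.26). LPAR6 had 54, 32, 30 and 13 counts, with -0.54 (-1.23 to 0.11) in the LN pair and -1.19 (-2.29 to -0.24) in the 2B pair. It was the middle gene of the 3 in both pairs, so the medians are its own values. In the 2B pair LPAR6 was above 1 normalized CPM in C4-2B only (1.47 against 0.63 in 2B-OlapR). LPAR2 was the highest of the list in both, at 0.46 (0.29 to 0.64) and 0.21 (0.04 to 0.39).

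**Figure D4:**
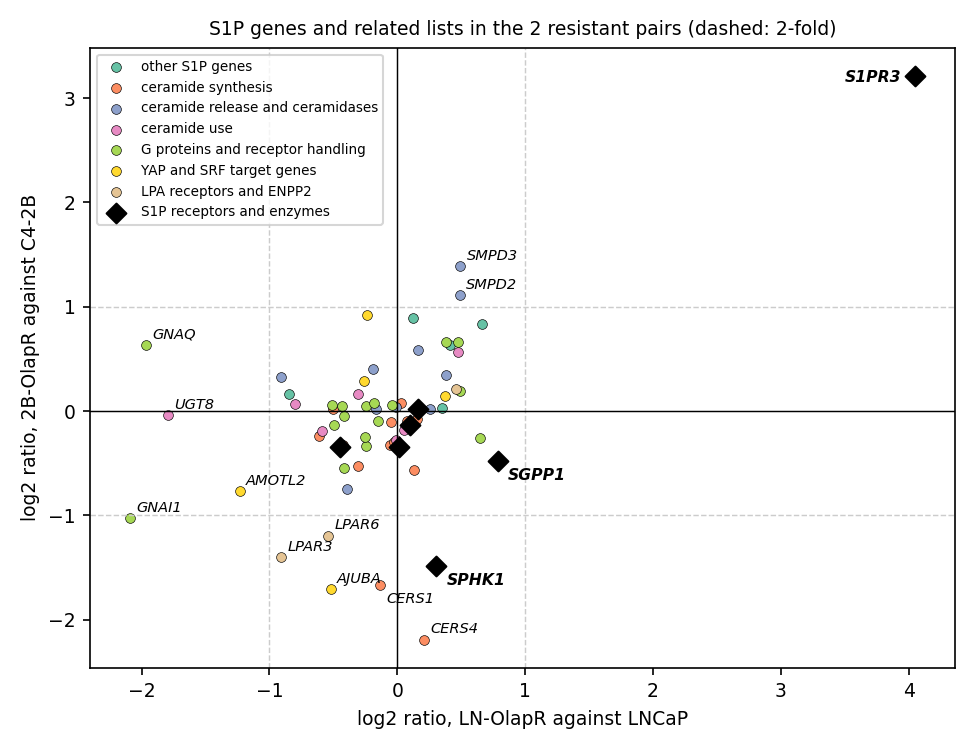
The log2 ratio in the LN pair (horizontal) is set against that in the 2B pair (vertical) for the listed genes that passed the minimum level in both pairs and for the 7 S1P genes (black diamonds), with dashed lines at 2-fold. S1PR3 lies alone at 4.05 and 3.21, and the named listed genes are those past 2-fold in either pair.

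The genes whose pattern over the 4 libraries was most like that of S1PR3 were ranked by the Euclidean distance between centred log2 levels, among 14182 genes. BHLHE41, a transcriptional repressor, was at a distance of 1.16, with 5, 74, 17 and 201 counts in LNCaP, LN-OlapR, C4-2B and 2B-OlapR. TMEM100 was at 1.18 with 0, 8, 11 and 65 counts. NAV2 was at 1.25 with 12, 72, 102 and 429 counts, and AHR, the aryl hydrocarbon receptor, at 1.31 with 7, 61, 21 and 175 counts. These genes were picked for likeness to S1PR3, so their being lowest in LNCaP and highest in 2B-OlapR follows from the ranking. TMEM100 and NAV2 were higher in C4-2B (0.54 and 4.98 normalized CPM) than in LN-OlapR (0.34 and 3.09), unlike S1PR3. TMEM100 reached 1 normalized CPM in 2B-OlapR only. The patterns are given as a description over 4 libraries. Restricted to 9913 genes averaging 10 normalized CPM or more, the nearest were LRG1, ADORA2A, SLPI, HES1 and TUSC1, and BHLHE41, TMEM100, NAV2 and AHR were all below that mean.

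On chromosome 9, the nearest measured neighbour of S1PR3 had the same direction. SHC3, which encodes a signalling adaptor, ends 760 bases beyond S1PR3 on the opposite strand. It went from 7 to 56 counts in the LN pair and from 27 to 98 in the 2B pair. Its order of lines was that of S1PR3, with log2 ratios of 3.12 (2.07 to 4.58) in the LN pair and 1.82 (1.22 to 2.51) in the 2B pair. SPIN1, the neighbour on the other side, gave -0.36 (-0.45 to -0.27) and -0.26 (-0.37 to -0.15).

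Within 1000 kb of S1PR3, a window chosen after its values were seen, 7 other genes passed the minimum in the LN pair and 9 in the 2B pair. Their log2 ratios had medians of -0.08 and 0.09 and ran from -0.52 (PA2G4P6) to 3.12 (SHC3) in the LN pair and from -0.56 (RPS10P3) to 1.82 (SHC3) in the 2B pair. Among the genes that passed, SHC3 was the 1 gene at least 2-fold higher in either pair, and 0 were lower. In the LN pair SHC3 was above 1 normalized CPM in LN-OlapR only (2.40 against 0.26 in LNCaP). Below the minimum, ENSG00000285907 had a log2 ratio of 1.18 in the LN pair and HNRNPA1P14 -1.18 in the 2B pair. Whether reads that run past the end of S1PR3 add to the SHC3 counts was not tested.

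Neighbours of the other members are given in the same way. MYBBP1A overlaps the end of SPNS2 on the opposite strand over 139 bases and had log2 ratios of 0.13 and 0.22 in the LN and 2B pairs. SYNE2, next to SGPP1, was at -0.20 (-0.28 to -0.12) and -1.20 (-1.34 to -1.07), and FAM83E, next to SPHK2, was at -2.05 (-2.63 to -1.53) in the 2B pair. CA11, on the other side of SPHK2, was at -1.68 (-2.29 to -1.13) in the LN pair and -0.96 (-1.66 to -0.31) in the 2B pair. EIF3G and MRPL4 beside S1PR2, QRICH2 and UBE2O beside SPHK1, PCBD1 beside SGPL1 and ENSG00000274015 beside SGPP1 stayed between -0.34 and 0.38 in both pairs. PALD1 beside SGPL1 and SPNS3 and GGT6 beside SPNS2 had at most 17 counts in a library.

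**Figure D5:**
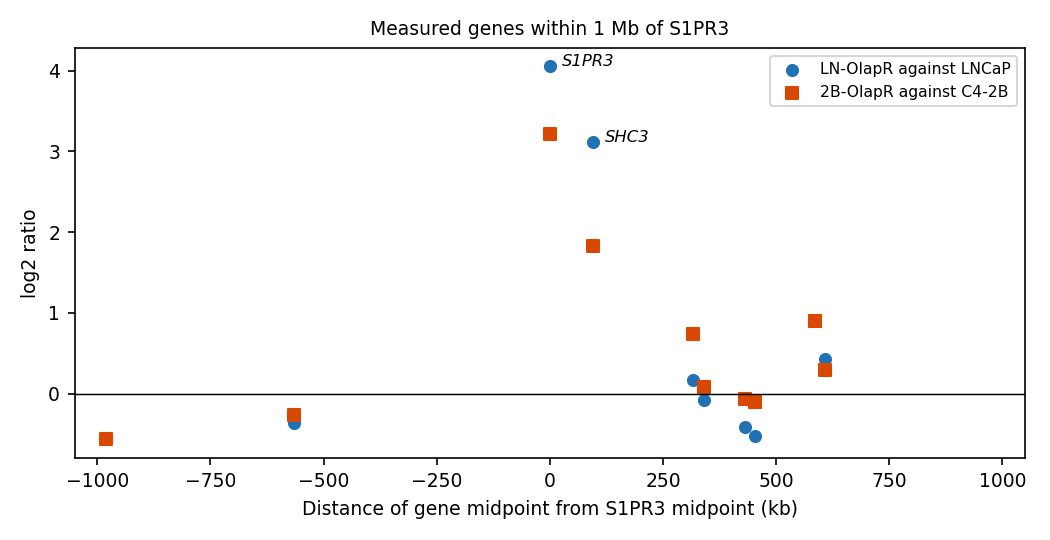
The log2 ratio of each gene averaging 1 normalized CPM or more in the pair is plotted against the distance (kb) of its midpoint from that of S1PR3, with circles for the LN pair and squares for the 2B pair. S1PR3 and SHC3 stand above the other genes of the window, which lie below 1 on the log2 axis.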

How the data were processed

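RNA-seq libraries were prepared by the authors from 100 ng of total RNA (TRIzol) with a stranded mRNA kit, 1 library per cell line. The submitters' processing notes name STAR, Partek and GRCh38. Annotation release and strand setting are not given in the sources used here. The authors deposited estimated counts per gene (46.2% of values not whole) for 22637 genes, each summing to at least 10.0. No value column was left unused. The design had assumed counts, so estimated counts were rounded.

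Libraries were scaled by TMM factors (R 4.3.3 with edgeR 4.0.16), and values were computed in Python 3.11.15 with numpy 2.4.6, pandas 2.3.3 and SciPy 1.17.1. Log2 ratios used a pseudocount of 0.5 counts and exact conditional binomial intervals, levels exact Poisson intervals, shares Wilson intervals and differences between pairs normal intervals, at 95%. A gene entered a comparison if it averaged 1 normalized CPM or more. Intervals of log2 ratios were tested on simulated whole counts with counting error only. That setting leaves out the spread between replicates and the rounding of estimated counts. Totals of 19950537 to 26394267 counts set this precision. GENCODE release 29 gave positions and lengths.

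Genes named were all members, listed genes past 2-fold in a resistant pair, the highest and lowest of each list, the 5 genes most like S1PR3, and overlapping or neighbouring genes; 1 gene under this rule is not reported here. Members and lists were chosen with earlier results of these data known. Alternatives were total-count, DESeq2 1.42.0 and upper quartile scaling, a pseudocount of 2, other minimum levels, a fold of 1.5 and other gene lengths.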

Additional observations from a re-analysis of the deposited data

Results flagged for a closer look

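Genes were singled out where the resistant line lay on opposite sides of its parent in the 2 pairs, beyond counting error in both. SGPP1 had log2 ratios of 0.78 in the LN pair and -0.48 in the 2B pair. SGPL1 had log2 ratios of 0.10 (0.02 to 0.19) and -0.13 (-0.27 to -0.003). Total-count scaling gave 0.02 in the LN pair, and upper quartile scaling gave -0.11 in the 2B pair. These scalings shifted the median of all genes by -0.08 and 0.03, further than the nearer interval limits lie from 0. That SGPL1 is beyond counting error in both pairs therefore depends on the scaling. With 1 library per line, the difference between pairs was not tested against replicate spread.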

How the results depend on the processing

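The members' log2 ratios under other scalings and a pseudocount of 2 (112 values) moved by less than their counting intervals. With total-count scaling, 2 ratios near 0 changed sign, SPHK2 in the 2B pair from 0.02 to -0.02 and SPNS2 in the LN pair from 0.02 to -0.07. Counts of members past the threshold depended on the fold and the minimum level. With a fold of 1.5 in place of 2, the count of higher genes was 2 in the LN pair, 5 for C4-2B against LNCaP and 2 for 2B-OlapR against LN-OlapR, and 1 gene was lower in C4-2B than in LNCaP. With a minimum mean of 10 normalized CPM, 1 gene was higher in C4-2B than in LNCaP. The percentages of all genes in the report are for 2-fold and a minimum of 1 normalized CPM. They do not apply to these counts, which are given without a share of all genes. Shares with merged exons and with the spliced S1PR3 transcript were chosen after seeing the data, and they moved as given in the report. Scaling moved the median of all genes by at most -0.08. Within a single comparison no paired analysis was possible, because each sets 1 library against 1. A fit over both pairs with the background as a block was not run. No library could be left out. At the depth of these libraries, S1PR2 and SPNS2 rest on 74 to 139 counts, and their 1.27-fold lower levels in the 2B pair were not detectable as differences.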
